A study of Mus musculus with 22 samples.

Results

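Polycomb and BAF subunit genes were followed through the induction of mouse neural progenitors from embryonic fibroblasts. The set held 43 genes of 22518 in the expression tables: 9 of Polycomb repressive complex 2 (PRC2), 15 of Polycomb repressive complex 1 (PRC1), the histone demethylase genes Kdm2b and Kdm6b, and 17 of the BAF remodelling complex. Members were the genes of a fixed list, and each was found by its gene symbol in all 22 tables. Levels are in FPKM, fragment counts scaled to transcript length and library size, summed over the transcripts of a gene. All 43 passed the filter on low values, which asked for at least 1 FPKM in at least 2 libraries. Actl6b passed through the Teratoma libraries alone.

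Poly(A)-selected RNA was sequenced in 11 groups of 2 libraries, all from the C57BL/6 strain. Cultures in direct conversion from fibroblasts were taken on Days 1, 4, 7, 10, 14, 17 and 21. The pre-NPC libraries came from primary neurosphere-like clusters, and the giNPC P6 group was the line established from the induction, at passage 6. Brain-NPC were progenitors taken from neonatal brain, and Teratoma was tumour tissue. The labels used here do not state the agents used for induction, the cells that gave rise to the Teratoma, whether giNPC P6 is 1 clone, or whether both libraries of a group were separate cultures. The p-values below therefore measure only the spread between these libraries, which may be technical.

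PRC2 places methyl groups on lysine 27 of histone H3 through the alternative methyltransferases EZH2 and EZH1, and the mark goes with gene repression. PRC1 ubiquitinates histone H2A through RING1 or RNF2, and its CBX subunits bind the PRC2 mark. BAF (mSWI/SNF) uses the ATPase SMARCA4 or SMARCA2 to move nucleosomes, opposes Polycomb at many genes, and changes subunits when neural progenitors become neurons: ACTL6A and PHF10 give way to ACTL6B and DPF1 or DPF3.

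The promoters of both PRC2 methyltransferase genes and of both BAF53 genes are shown because the results below follow these paralogs against each other. Each sequence runs from 250 bases before to 20 bases after the RefSeq transcription start on the gene's own strand (mouse build GRCm38.p6). Capitals mark CCAAT on either strand and 8-base forms of the E2F motif on either strand (TTTGGCGC, TTTCGCGC, TTTCCCGC and TTTGCCGC).
Ezh2, chr6:47595011-47595280, minus strand: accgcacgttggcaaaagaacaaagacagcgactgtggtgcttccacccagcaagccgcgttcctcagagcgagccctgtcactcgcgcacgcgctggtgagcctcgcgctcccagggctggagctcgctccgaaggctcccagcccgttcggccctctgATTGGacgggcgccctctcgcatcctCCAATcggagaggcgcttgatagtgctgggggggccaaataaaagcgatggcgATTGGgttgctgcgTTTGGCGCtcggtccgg
Ezh1, chr11:101226444-101226713, minus strand: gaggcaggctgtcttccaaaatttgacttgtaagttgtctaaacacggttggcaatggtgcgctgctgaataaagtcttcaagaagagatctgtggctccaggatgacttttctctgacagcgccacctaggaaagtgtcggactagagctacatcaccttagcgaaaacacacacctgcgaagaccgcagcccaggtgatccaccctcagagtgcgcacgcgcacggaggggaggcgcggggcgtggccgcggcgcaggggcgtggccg
Actl6a, chr3:32708296-32708565, plus strand: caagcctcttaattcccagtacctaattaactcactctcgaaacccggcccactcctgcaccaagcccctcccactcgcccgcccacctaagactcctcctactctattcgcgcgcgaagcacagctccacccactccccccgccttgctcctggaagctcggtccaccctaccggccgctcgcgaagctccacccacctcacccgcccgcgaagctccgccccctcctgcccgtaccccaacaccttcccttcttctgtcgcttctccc
Actl6b, chr5:137553296-137553565, plus strand: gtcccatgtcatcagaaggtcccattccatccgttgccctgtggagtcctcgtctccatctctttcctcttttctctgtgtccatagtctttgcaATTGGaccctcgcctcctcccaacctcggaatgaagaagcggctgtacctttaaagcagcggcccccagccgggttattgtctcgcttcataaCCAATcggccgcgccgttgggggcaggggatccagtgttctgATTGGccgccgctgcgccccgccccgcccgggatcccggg
The Ezh2 window held 3 CCAAT matches and an E2F match just past the start. The Actl6b window held 3 CCAAT matches, and the windows of Ezh1 and Actl6a held neither motif. RefSeq windows were found for 38 of the 43 members, as 48 windows. CCAAT was in 35.4% of these windows and in 35.4% of all 32851 windows of the same length. An E2F 8-mer was in 10.4% of member windows, those of Arid1a, Ezh2, Phf19, Smarcd1 and Suz12, against 2.02% of all windows. Member windows held a median of 24.5 CpG dinucleotides, against 6 in all windows. A match describes letters only, and the absence of a match says only that these letters are not in the window.

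Between 3084428 and 9689996 reads per library were counted in transcripts, and replicates correlated with Spearman coefficients of 0.973 to 0.994 across genes. The labelled identities were compared with marker genes. The summed level of 12 fibroblast markers was 36.0 and 29.0 FPKM in giNPC P6, against 4840 and 4770 FPKM on Day 1. The 12 neural progenitor markers summed to 5732 and 6679 FPKM in giNPC P6, against 28.1 and 47.9 FPKM on Day 1, with Hes5 and Sox1 at 0 there. The 11 listed macrophage markers summed to 856 and 867 FPKM on Day 1, 9185 and 11270 FPKM on Day 4, 13190 and 12980 FPKM on Day 7, 5128 and 5016 FPKM on Day 10, and 350 and 428 FPKM on Day 21. All 11 were at 1 FPKM or more in both libraries on Days 1 to 14, and their part in the results on members was not tested. In bulk RNA, fewer cells of a type and less RNA per cell cannot be told apart.

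A member was called where limma gave an adjusted p under 0.05 over all 15659 tested genes and the difference was at least 2-fold on the log2(FPKM + 1) scale. The 6 later days shared the Day 1 libraries as their baseline. No member was called on Day 4 or on Day 7, when 7.80% (6.95% higher, 0.843% lower) and 10.9% (9.02% higher, 1.88% lower) of all genes were called. By limma, 14 members on Day 4 and 20 on Day 7 had an unadjusted p under 0.05, as did 33.9% and 45.5% of all genes. On counts, edgeR and DESeq2 each called 1 member (lower) on Day 4 and 2 (1 higher, 1 lower) on Day 7. With edgeR these were Dpf1 on Day 4 (-1.24, adjusted p = 0.0158), and Cbx7 (1.74, adjusted p = 0.00632) and Cbx2 (-1.66, adjusted p = 0.0181) on Day 7. A pseudocount of 0.1 gave the same calls, at -1.01, 1.79 and -1.57, and also called Cbx7 higher on Day 4 and Dpf3 higher on Day 7. The first calls came on Day 10, with 5 members higher and 0 lower, against 14.5% and 2.62% of all genes. At Day 14, 8 members were higher and 0 lower, against 15.7% and 6.96% of all genes. At Day 17, 10 were higher and 0 lower, against 19.3% and 10.5%, and on Day 21, 8 were higher and 1 lower, against 18.3% and 10.2%. In giNPC P6 compared with Day 1, 11 members were higher and 1 lower, against 20.9% and 13.8% of all genes.

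Taken over both directions, the share of members called was 11.6% on Day 10, 18.6% on Day 14, 23.3% on Day 17, 20.9% on Day 21 and 27.9% in giNPC P6. All genes were called at 17.1%, 22.6%, 29.8%, 28.6% and 34.7% in the same order, so the number of calls was not high for a set of this size. The median log2 difference of the members was 0.47 on Day 10, 0.50 on Day 14, 0.49 on Day 17, 0.31 on Day 21 and 0.60 in giNPC P6. The medians of all genes were 0.24, 0.20, 0.14, 0.12 and 0.11. All these medians are on FPKM as deposited, and the shift of the members was not tested on other scalings. By edgeR on counts, 36 members could be tested, and not all kept the limma sign. Those that did were 29 on Day 10, 27 on Day 14, 28 on Day 17, 31 on Day 21 and 30 in giNPC P6. When FPKM were rescaled between libraries by median-of-ratios factors, the all-gene medians were 0.002 on Day 10 and 0 in the others, and the split of higher to lower calls was 2 to 0 on Day 10, 6 to 1 on Day 14, 5 to 2 on Day 17, 6 to 4 on Day 21 and 7 to 3 in giNPC P6. Without a fold minimum, 7 members passed the adjusted p on Day 4, 17 on Day 7, 30 on Day 10, 27 on Day 14, 32 on Day 17, 29 on Day 21 and 35 in giNPC P6. The shares of all genes that did so were 24.5%, 37.5%, 49.9%, 56.5%, 62.7%, 62.4% and 67.0%. All 43 members differed over the 11 groups by the F test, as did 98.5% of all genes. For Actl6b, which passed the filter through Teratoma alone, this test gives no support. Called lower in giNPC P6 compared with Day 1 were 2 members without replicate 1 of Day 1 or without either giNPC P6 library.

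The heat map shows each member in all 22 libraries.

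**Figure D1:**
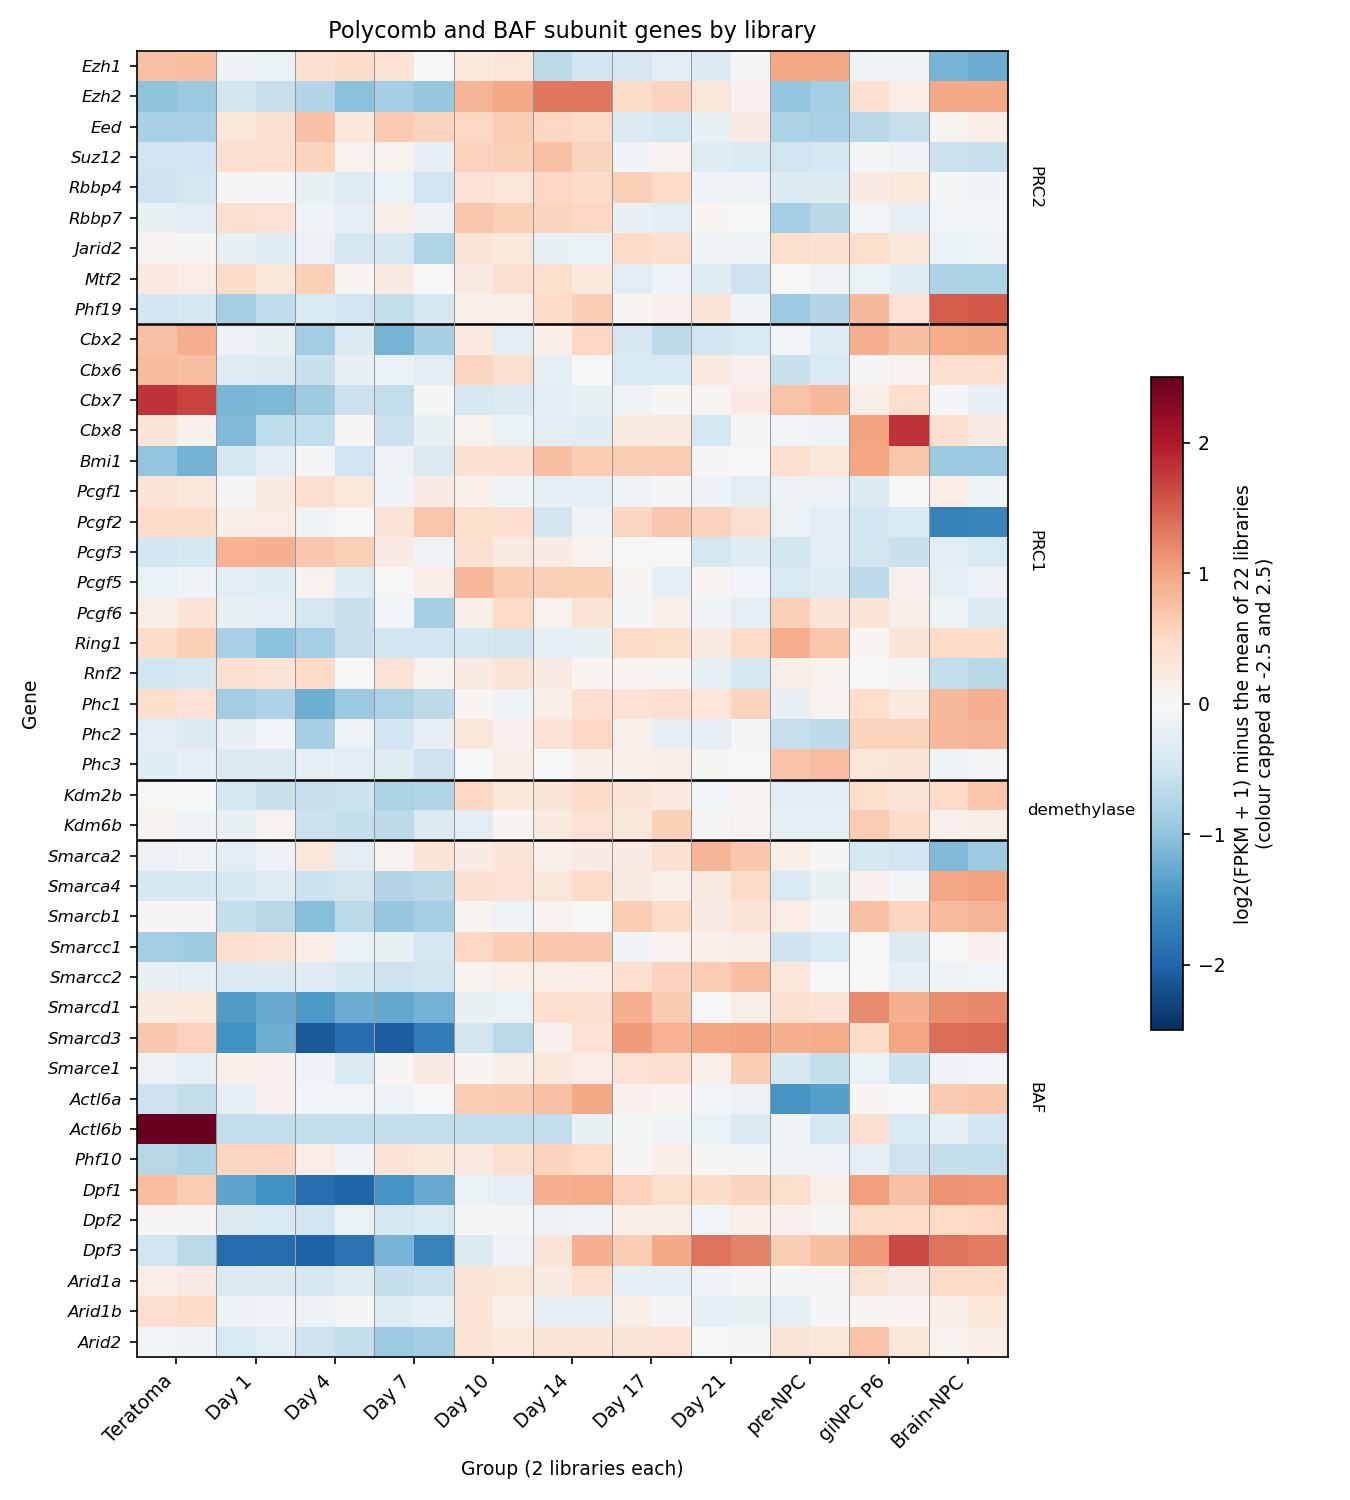
Each row is 1 of the 43 genes and each column 1 library, and colour gives log2(FPKM + 1) minus the gene's mean over 22 libraries. Actl6b was high only in the Teratoma libraries (19.3 and 22.4 FPKM, against at most 0.997 FPKM elsewhere), and Smarcd1, Smarcd3, Dpf1 and Dpf3 were lowest on Days 1 to 7.

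Ezh2, the PRC2 methyltransferase typical of dividing cells, peaked on Day 14 and was low in pre-NPC. Its level was 16.2 and 14.9 FPKM on Day 1, 13.1 and 10.4 on Day 4, 12.02 and 11.3 on Day 7, 41.3 and 44.3 on Day 10, 57.9 and 58.9 on Day 14, 31.6 and 34.3 on Day 17, and 28.1 and 24.4 on Day 21. Both libraries of Days 10 to 21 were above both Day 1 libraries. The log2 difference from Day 1 was 1.41 ± 0.11 (SE) on Day 10 (limma, adjusted p = 6.23e-08), 1.85 ± 0.11 on Day 14 (adjusted p = 2.11e-09) and 1.04 ± 0.11 on Day 17 (adjusted p = 7.42e-07). The Day 17 value fell below the 2-fold limit, at 0.98, without replicate 2 of Day 1 or of Day 17, and was 0.71 on rescaled FPKM. Counting per transcript sets aside reads shared by transcripts of a gene. The count tables hold 0 reads for the annotated transcripts of Ezh2, so no count test could be made for it.

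Ezh1, the paralog typical of cells that divide little, peaked elsewhere. It was at 4.15 and 4.11 FPKM on Day 1, 2.61 and 3.06 on Day 14, and 3.49 and 4.57 on Day 21, with no call against Day 1. In pre-NPC it was at 10.2 and 9.93 FPKM, above every other library. The ratio of Ezh2 to Ezh1 was 3.9 and 3.63 on Day 1, 22.2 and 19.3 on Day 14, 8.08 and 5.34 on Day 21, 1.08 and 1.21 in pre-NPC, 7.16 and 6.15 in giNPC P6, and 29 and 31.4 in Brain-NPC.

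In pre-NPC compared with Day 21, Ezh2 fell to 11.0 and 12.04 FPKM in pre-NPC, against 28.1 and 24.4 FPKM on Day 21. The log2 difference was -1.12 ± 0.11 (adjusted p = 1.48e-06), and the groups did not overlap. Ezh1 rose by 1.15 ± 0.13 (adjusted p = 6.55e-06), a value that was 0.99 without replicate 1 of Day 21. Both shifts were turned round in giNPC P6 compared with pre-NPC: Ezh2 rose by 1.21 ± 0.11 (adjusted p = 6.41e-07) to 30.0 and 25.9 FPKM, and Ezh1 fell by 1.09 ± 0.13 (adjusted p = 1.07e-05) to 4.19 and 4.22 FPKM. The 2 comparisons share the pre-NPC libraries.

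The 16 proliferation genes, Mki67 and Top2a among them, were measured beside these results. They summed to 226 and 224 FPKM on Day 1, 606 and 593 on Day 10, 704 and 698 on Day 14, 208 and 209 on Day 17, 296 and 307 on Day 21, 67.1 and 74.6 in pre-NPC, and 626 and 562 in giNPC P6. None of the 16 was at 0 in both libraries of any group. Among the days, their sum was highest on those in which Ezh2 was highest, and on Day 17 it was near the Day 1 level. Of all groups the sum was lowest in pre-NPC. Other groups ran less in parallel. On Day 4 the sum was 246 and 248 FPKM, above Day 1, while Ezh2 was below Day 1. Brain-NPC had the highest sum, 1173 and 1164 FPKM, with Ezh2 at 44.4 and 44.8 FPKM, below Day 14. In Teratoma the sum was 196 and 195 FPKM, with Ezh2 at 10.7 and 11.4 FPKM, near its pre-NPC level. The part of the proliferation genes in the Ezh2 result was not tested.

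**Figure D2:**
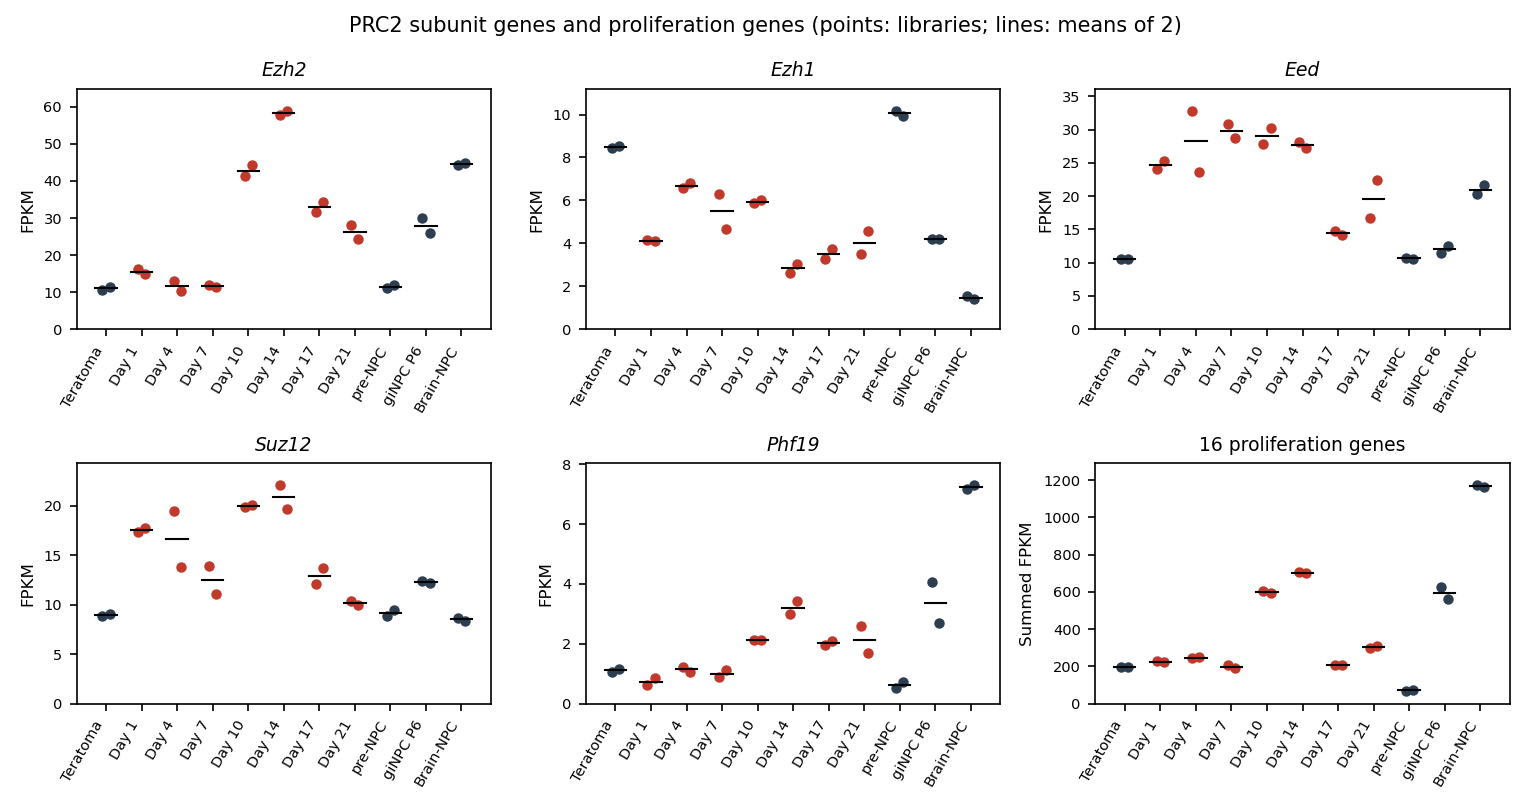
Points are the FPKM of each library, lines the mean of 2, for 5 PRC2 genes, and the last panel gives the summed FPKM of 16 proliferation genes (red: induction days, blue: other groups). Ezh2 was highest on Day 14 (57.9 and 58.9 FPKM) and Ezh1 in pre-NPC (10.2 and 9.93 FPKM).

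Of the partners that the enzyme needs, Eed was lower in giNPC P6 than on Day 1. Eed, which reads the mark and holds the enzyme active, was at 11.5 and 12.6 FPKM in giNPC P6, against 24.1 and 25.2 FPKM on Day 1. The groups were apart, but the log2 difference of -0.98 ± 0.14 missed the 2-fold limit (adjusted p = 1.32e-05). It was called at -1.28 on rescaled FPKM and at -1.28 by edgeR on counts (adjusted p = 5e-06). Already on Day 17 Eed was at 14.7 and 14.2 FPKM. It was called lower than on Day 1 there, at -1.06 on rescaled FPKM and at -1.07 by edgeR (adjusted p = 5.8e-05). Suz12, the scaffold of PRC2, was at 12.4 and 12.2 FPKM in giNPC P6 and 17.3 and 17.7 FPKM on Day 1 (log2 difference -0.48 ± 0.13). On Day 21 it was called lower than on Day 1 on rescaled FPKM only, at -1.003. The histone-binding genes Rbbp4 and Rbbp7 ranged over the groups from 31.8 to 65.8 and from 33.7 to 90.8 mean FPKM, with no call by limma. EdgeR on counts called Rbbp7 lower on Day 17 (-1.05, adjusted p = 7.27e-07) and in giNPC P6 compared with Day 1 (-1.01, adjusted p = 9.19e-07).

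Among accessory genes, Phf19, whose Polycomb-like protein helps to recruit PRC2, changed most. It was at 0.618 and 0.853 FPKM on Day 1, 2.98 and 3.42 on Day 14, 0.531 and 0.721 in pre-NPC, 4.07 and 2.68 in giNPC P6, and 7.19 and 7.30 in Brain-NPC. It rose by 1.28 ± 0.15 on Day 14 (adjusted p = 5.18e-06), by 1.41 ± 0.15 in giNPC P6 compared with pre-NPC (adjusted p = 4.58e-06) and by 1.32 ± 0.15 in giNPC P6 compared with Day 1 (adjusted p = 2.31e-06). Against Day 1, edgeR on counts also called Phf19 higher on Day 10 (1.095), Day 17 (1.43) and Day 21 (1.14). A pseudocount of 0.1 called it on the same days, at 1.43, 1.36 and 1.4. Mtf2, a paralog of Phf19, ranged from 3.11 to 8.24 mean FPKM, with its highest mean on Day 1. Jarid2, a PRC2 cofactor of early development, ranged from 4.69 to 10.4 mean FPKM. Neither was called by limma. EdgeR on counts called Mtf2 lower than on Day 1 on Day 17 (-1.06, adjusted p = 0.000846), on Day 21 (-1.58, adjusted p = 2.25e-05) and in giNPC P6 (-1.08, adjusted p = 0.000547), and on rescaled FPKM it was called on Day 21 (-1.04). EdgeR called Jarid2 lower in Teratoma compared with giNPC P6 (-2.46, adjusted p = 0.0355), but on only 150 counted reads in all libraries. Its gene FPKM was 7.82 and 7.63 in Teratoma and 10.5 and 9.25 in giNPC P6.

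The CBX genes of PRC1 encode the subunits that bind methylated histone H3. Cbx7 was at 0.270 and 0.280 FPKM on Day 1, 1.61 and 1.85 on Day 17, 1.95 and 2.25 on Day 21, 3.60 and 4.02 in pre-NPC, and 2.16 and 2.80 in giNPC P6. All these libraries were above both Day 1 libraries. The log2 difference from Day 1 was 1.095 ± 0.16 on Day 17 (adjusted p = 3.17e-05), 1.28 ± 0.16 on Day 21 (adjusted p = 7.1e-06) and 1.44 ± 0.16 in giNPC P6 (adjusted p = 1.65e-06). The Day 17 value was 0.97 on rescaled FPKM, under the 2-fold limit. On the scale used, such folds understate the change of a gene this low at baseline, and with a pseudocount of 0.1 Cbx7 was already called on Day 4 (1.08, adjusted p = 0.0128).

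Cbx8 was highest in giNPC P6, where its 2 libraries were far apart. Its level was 7.81 and 14.4 FPKM in giNPC P6, against 3.21 and 3.07 FPKM in pre-NPC and 1.03 and 1.81 FPKM on Day 1. It rose by 2.29 ± 0.26 over Day 1 (adjusted p = 2.13e-06) and by 1.49 ± 0.26 over pre-NPC (adjusted p = 0.000361). At Day 17, 4.15 and 4.12 FPKM gave a difference from Day 1 of 1.104 ± 0.26 (adjusted p = 0.00197), which was 0.87 without replicate 1 of Day 1 and 0.88 on rescaled FPKM. Cbx2, whose gene lies 7.17 kb from Cbx8 on chromosome 11 (mm9), was at 4.73 and 4.13 FPKM in giNPC P6 and 1.90 and 1.44 FPKM in pre-NPC. Its log2 difference was 1.03 ± 0.20 (adjusted p = 0.00074), and 0.90 without replicate 2 of pre-NPC or 0.95 without replicate 1 of giNPC P6, and 0.93 on rescaled FPKM. Cbx6 ranged from 12.1 to 29.9 mean FPKM, with no call.

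The PCGF genes give each form of PRC1 its identity, and they did not move together. Bmi1 (PCGF4), which sustains self-renewal of neural stem cells, was at 14.8 and 16.6 FPKM on Day 1, 35.3 and 32.2 on Day 14, 21.0 and 20.2 on Day 21, 27.5 and 25.2 in pre-NPC, and 41.6 and 33.7 in giNPC P6. It rose by 1.06 ± 0.14 on Day 14 (adjusted p = 1.32e-05) and by 1.201 ± 0.14 in giNPC P6 compared with Day 1 (adjusted p = 2.2e-06). The Day 14 value was 0.98 without replicate 1 of Day 1 and 0.99 without replicate 1 of Day 14. On rescaled FPKM the differences were 0.69 on Day 14 and 0.90 in giNPC P6, and edgeR on counts gave 0.74 and 0.96, so neither kept the 2-fold limit there.

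Pcgf3, of the non-canonical PRC1 forms, ran the other way. It was at 32.1 and 32.3 FPKM on Day 1, 27.8 and 26.1 on Day 4, 19.9 and 15.9 on Day 7, 12.3 and 13.7 on Day 21, and 12.1 and 11.3 in giNPC P6. Both Day 1 libraries were above all others. It fell by 1.25 ± 0.10 on Day 21 (adjusted p = 7.81e-08) and by 1.39 ± 0.10 in giNPC P6 (adjusted p = 1.9e-08). Pcgf5, also of non-canonical PRC1, was at 10.6 and 8.90 FPKM on Day 10 and 4.42 and 4.28 FPKM on Day 1 (1.00 ± 0.20, adjusted p = 0.000631). That value was 0.98 without replicate 2 of Day 1 and 0.89 without replicate 1 of Day 10. It was 0.65 on rescaled FPKM, and on counts 0.87 with edgeR (adjusted p = 0.0607) and 0.85 with DESeq2 (adjusted p = 0.0706). Pcgf1, Pcgf2 and Pcgf6 were not called against Day 1, and their mean levels ranged from 3.04 to 5.07, from 3.39 to 20.3 and from 2.79 to 6.46 FPKM.

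The 2 ubiquitin ligase genes came closer in level. Ring1 was at 5.07 and 4.30 FPKM on Day 1, 14.0 and 13.4 on Day 17, 11.6 and 14.0 on Day 21, and 19.0 and 16.3 in pre-NPC. It rose by 1.38 ± 0.13 on Day 17 (adjusted p = 2.12e-07) and by 1.27 ± 0.13 on Day 21 (adjusted p = 5.52e-07), and it was also called in giNPC P6 compared with Day 1, at 1.102 with all libraries but 0.96 without replicate 2 of giNPC P6 and 0.83 on rescaled FPKM. Rnf2 (RING1B) was at 21.3 and 18.4 FPKM on Day 21 and 34.4 and 32.7 FPKM on Day 1, a log2 difference of -0.73 ± 0.13 that missed the limit with limma. It was called lower on rescaled FPKM, at -1.005, and by edgeR on counts, at -1.14 (adjusted p = 8.98e-06). The ratio of Rnf2 to Ring1 was thus 1.85 and 1.32 on Day 21, against 6.78 and 7.62 on Day 1.

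Of the Polyhomeotic genes, which let PRC1 form larger assemblies, Phc1 was called from Day 14. It was at 6.26 and 6.73 FPKM on Day 1, 13.9 and 16.6 on Day 14, 15.96 and 16.6 on Day 17, 15.3 and 18.3 on Day 21, 10.7 and 13.1 in pre-NPC, and 16.8 and 14.6 in giNPC P6. The log2 difference was 1.11 ± 0.14 on Day 14 (adjusted p = 5.58e-06), 1.21 ± 0.14 on Day 17 (adjusted p = 1.65e-06), 1.24 ± 0.14 on Day 21 (adjusted p = 1.33e-06) and 1.15 in giNPC P6. It was 0.99 on Day 14 without replicate 2 of that day. On rescaled FPKM the differences were 0.77, 0.90, 0.99 and 0.87, all under the 2-fold limit, and the count tables held 81 Phc1 reads in all libraries. Phc2 rose by 1.18 ± 0.18 (adjusted p = 8.43e-05) in giNPC P6 compared with pre-NPC, at 59.8 and 60.1 against 26.6 and 25.4 FPKM. Phc3 ranged from 3.99 to 10.0 mean FPKM and was highest in pre-NPC, with no call.

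**Figure D3:**
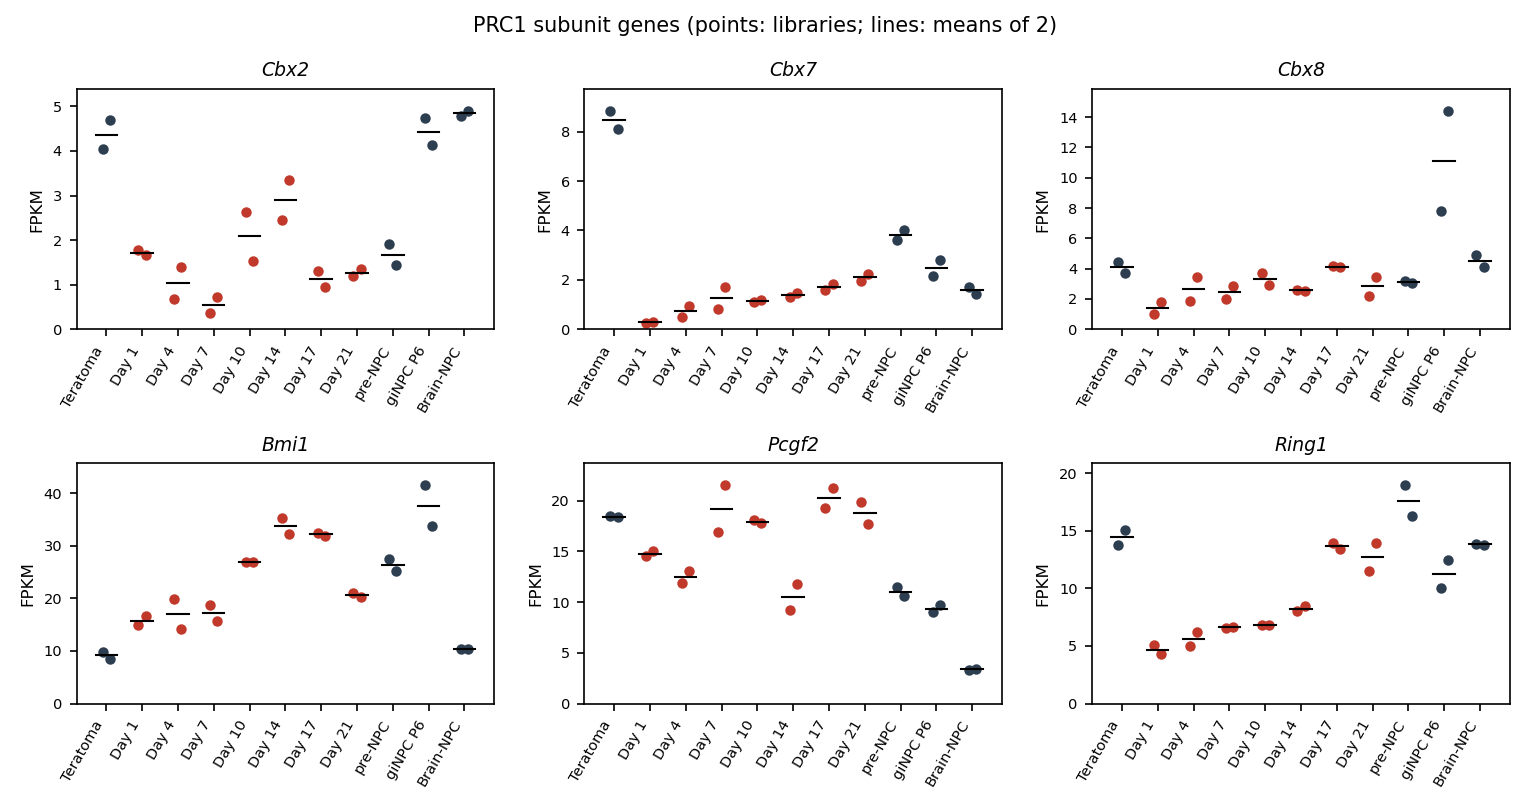
Points are the FPKM of each library and lines the mean of 2 for 6 PRC1 genes (red: induction days, blue: other groups). Bmi1 was at 41.6 and 33.7 FPKM in giNPC P6 and 10.4 in both Brain-NPC libraries, and the 2 giNPC P6 libraries differed for Cbx8 (7.81 and 14.4 FPKM).

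Neither demethylase gene was called in any comparison. Kdm2b, which brings a PRC1 form to unmethylated CpG islands, ranged from 5.78 mean FPKM on Day 7 to 16.6 in Brain-NPC. Kdm6b, which removes the PRC2 mark, ranged from 5.23 mean FPKM on Day 4 to 12.5 in giNPC P6.

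Among BAF genes, 4 were called in most later comparisons with Day 1: Smarcd1, Smarcd3, Dpf1 and Dpf3. Smarcd1 (BAF60A), which links BAF to transcription factors, was at 5.87 and 6.65 FPKM on Day 1, 6.52 and 7.11 on Day 7, 15.3 and 15.5 on Day 10, 23.7 and 23.3 on Day 14, 32.9 and 27.8 on Day 17, 17.2 and 19.2 on Day 21, 23.4 and 22.7 in pre-NPC, and 40.4 and 32.9 in giNPC P6. From Day 10 onwards both libraries of each day were above both Day 1 libraries. The log2 difference from Day 1 was 1.18 ± 0.11 on Day 10 (adjusted p = 5.15e-07), 1.76 ± 0.11 on Day 14 (adjusted p = 4.66e-09), 2.11 ± 0.11 on Day 17 (adjusted p = 3.29e-10), 1.41 ± 0.11 on Day 21 (adjusted p = 3.84e-08) and 2.37 ± 0.11 in giNPC P6 (adjusted p = 7.54e-11). The Day 10 value was 0.81 on rescaled FPKM.

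Smarcd3 (BAF60C), a paralog known from heart and neural development, was first called on Day 14. It was at 5.75 and 7.27 FPKM on Day 1, 3.57 and 4.72 on Day 7, 13.1 and 11.1 on Day 10, 19.7 and 23.6 on Day 14, 39.1 and 34.0 on Day 17, 37.1 and 37.7 on Day 21, and 25.4 and 37.4 in giNPC P6. It rose by 1.59 ± 0.17 on Day 14 (adjusted p = 1.13e-06), 2.33 ± 0.17 on Day 17 (adjusted p = 1.12e-08), 2.36 ± 0.17 on Day 21 (adjusted p = 1.11e-08) and 2.09 ± 0.17 in giNPC P6 (adjusted p = 3.28e-08). The ratio of Smarcd1 to Smarcd3 was 0.464 and 0.511 on Day 21, against 1.02 and 0.915 on Day 1.

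Dpf3 (BAF45C), a histone-reading subunit found in neurons and muscle, was near 0 at the start. It was at 0.066 and 0.068 FPKM on Day 1, 0.811 and 0.275 on Day 7, 2.18 and 2.79 on Day 10, 4.02 and 6.47 on Day 14, 5.23 and 6.83 on Day 17, 9.34 and 8.58 on Day 21, and 7.45 and 11.7 in giNPC P6. The log2(FPKM + 1) difference from Day 1 was 1.70 ± 0.22 on Day 10 (adjusted p = 1.52e-05), 2.52 ± 0.22 on Day 14 (adjusted p = 1.8e-07), 2.71 ± 0.22 on Day 17 (adjusted p = 5.13e-08), 3.22 ± 0.22 on Day 21 (adjusted p = 8.63e-09) and 3.28 ± 0.22 in giNPC P6 (adjusted p = 5.24e-09). No later library overlapped Day 1 from Day 7 onwards.

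Dpf1 (BAF45B), another subunit of neuronal BAF, was at 1.47 and 1.16 FPKM on Day 1, 0.661 and 0.537 on Day 4, 4.47 and 4.34 on Day 10, 10.3 and 10.6 on Day 14, 8.13 and 7.30 on Day 17, 7.45 and 8.07 on Day 21, and 11.7 and 9.16 in giNPC P6. It rose by 1.23 ± 0.14 on Day 10 (adjusted p = 3.01e-06), 2.31 ± 0.14 on Day 14 (adjusted p = 2.29e-09), 1.92 ± 0.14 on Day 17 (adjusted p = 1.07e-08) and on Day 21 (adjusted p = 1.2e-08), and 2.30 ± 0.14 in giNPC P6 (adjusted p = 1.15e-09). On rescaled FPKM the Day 10 value was 0.95. Phf10 (BAF45A), the progenitor subunit of the same position, was at 34.9 and 28.5 FPKM in giNPC P6 and 59.98 and 60.5 FPKM on Day 1. Its log2 difference of -0.91 ± 0.11 missed the 2-fold limit (adjusted p = 2.52e-06). It was called at -1.23 on rescaled FPKM and at -1.46 by edgeR on counts (adjusted p = 2.18e-08). Its values in replicate 1 of Day 1 and of Day 4 carry a failed-quantification mark in the deposited tables. The ratio of Phf10 to Dpf1 was 2.98 and 3.11 in giNPC P6, against 40.8 and 52.2 on Day 1. Dpf2 (BAF45D) ranged from 18.3 to 35.4 mean FPKM, with no call.

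**Figure D4:**
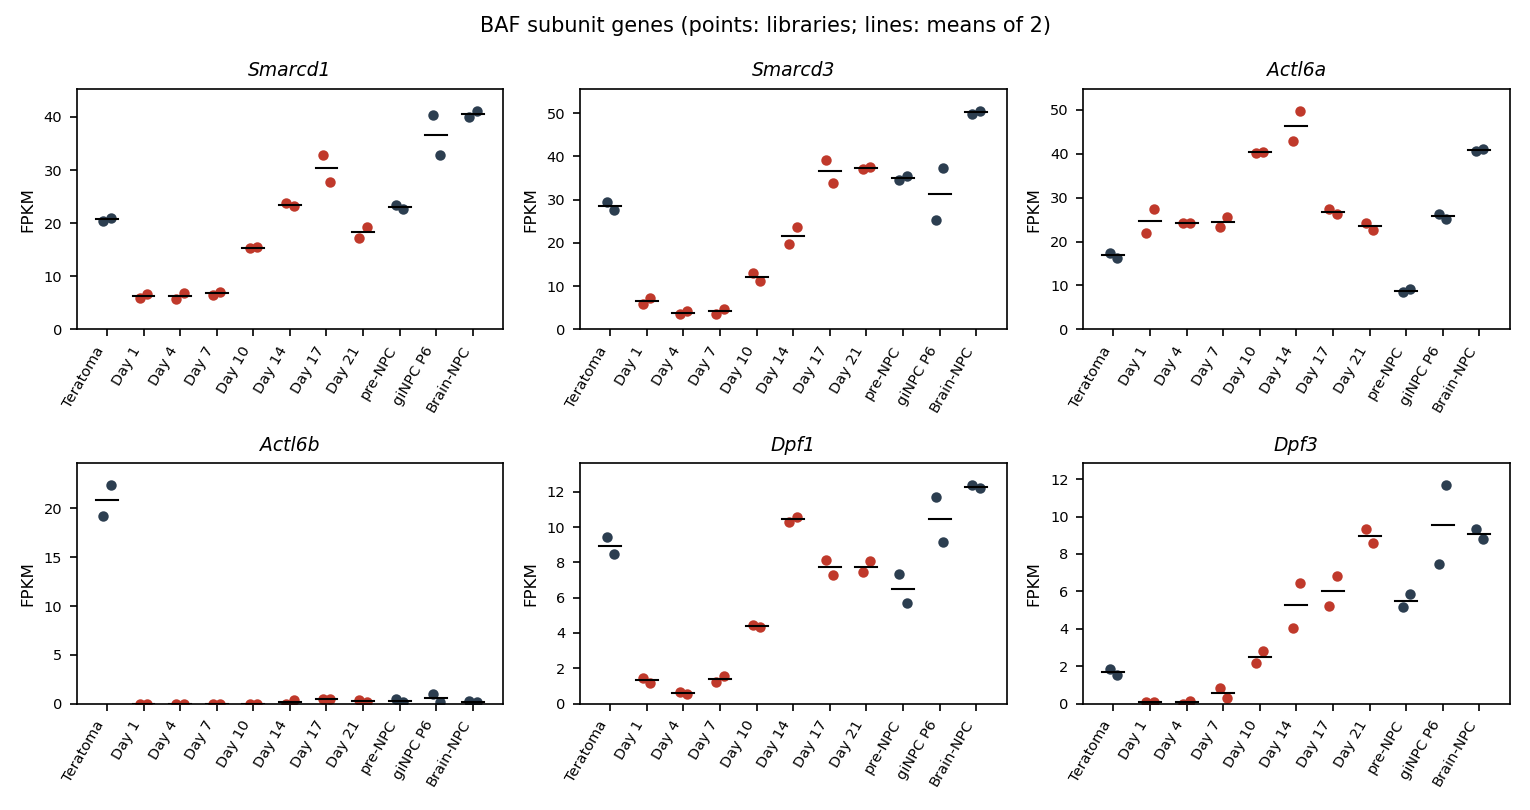
Points are the FPKM of each library and lines the mean of 2 for 6 BAF genes (red: induction days, blue: other groups). Smarcd1, Smarcd3, Dpf1 and Dpf3 were low on Days 1 to 7 and higher from Day 10, Actl6a was lowest in pre-NPC (8.52 and 9.11 FPKM), and Actl6b was high in Teratoma (19.3 and 22.4 FPKM).

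Actl6a (BAF53A), the actin-related subunit of progenitors, was highest on Day 14 among the days and lowest in pre-NPC. It was at 21.9 and 27.4 FPKM on Day 1, 40.2 and 40.4 on Day 10, 43.02 and 49.8 on Day 14, and 24.3 and 22.7 on Day 21. In pre-NPC it fell by 1.32 ± 0.10 (adjusted p = 1.38e-07), at 8.52 and 9.11 FPKM in pre-NPC against those Day 21 levels. In giNPC P6 it rose by 1.45 ± 0.10 over pre-NPC (adjusted p = 4.07e-08), to 26.3 and 25.2 FPKM. Its neuronal paralog Actl6b was listed at 0 in both libraries of Days 1, 4, 7 and 10, and at no more than 0.997 FPKM in any library outside Teratoma. By edgeR on counts Actl6b was called higher than on Day 1 on Day 17 (5.49), on Day 21 (5.72) and in giNPC P6 (5.96). A pseudocount of 0.1 also called these 3. In giNPC P6 compared with Brain-NPC, edgeR called it higher (2.98). All these calls rest on levels near 0, so they say little.

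The other BAF genes held narrower ranges. Smarcb1 (SNF5), a core subunit, was at 79.3 and 71.0 FPKM on Day 17, and 84.1 and 74.1 FPKM in giNPC P6, against 33.3 and 31.0 FPKM on Day 1. The log2 difference was 1.197 ± 0.12 on Day 17 (adjusted p = 7.32e-07) and 1.27 ± 0.12 in giNPC P6 (adjusted p = 3.44e-07), and 0.86 and 0.96 on rescaled FPKM. Smarcc2 (BAF170), a scaffold subunit, was at 81.6 and 90.1 FPKM on Day 21 and 40.9 in both Day 1 libraries (1.05 ± 0.11, adjusted p = 5.59e-07). It was 0.98 without replicate 2 of Day 21, 0.77 on rescaled FPKM, and 0.58 by edgeR on counts (adjusted p = 0.493). The counts held 505 Smarcc2 reads in all libraries, 0.009 of those expected from FPKM and length, so the count test says little here. Its paralog Smarcc1 (BAF155) ranged from 14.0 mean FPKM in Teratoma to 42.9 on Day 14. Smarce1, Arid1a, Arid1b and Arid2, of which the ARID genes encode DNA-binding subunits that define BAF or PBAF, ranged from 17.6 to 33.2, 9.03 to 19.8, 2.93 to 5.53 and 3.30 to 10.5 mean FPKM, with no call.

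The ATPase genes Smarca4 (BRG1) and Smarca2 (BRM) were not called on gene FPKM, but the transcripts of Smarca2 differed. Its gene lies at chr19:26679650-26852811 (mm9) and has a long transcript of 5813 bases and a short one of 1962 bases that starts inside the gene. The long transcript was at 9.19 and 9.06 FPKM on Day 1, 23.2 and 22.5 on Day 21, 26.1 and 28.9 in pre-NPC, 9.26 and 12.5 in giNPC P6, and 8.59 and 8.71 in Brain-NPC. It made up 32.7% and 29.8% of the gene's FPKM on Day 1, 37.5% and 41.1% on Day 21, and 68.9% and 83.4% in pre-NPC. The deposited counts, which for this gene were nearly all in the long transcript, gave 55.1 and 58.1 CPM (counts scaled to the library total) on Day 1, 154 and 131 on Day 21, 205 and 204 in pre-NPC, and 70.4 and 93.8 in giNPC P6. By edgeR on these counts, Smarca2 rose by 1.04 ± 0.18 on Day 21 compared with Day 1 (adjusted p = 4.64e-05) and fell by 1.34 ± 0.17 in giNPC P6 compared with pre-NPC (adjusted p = 4.32e-06). The summed FPKM gave 0.97 and -0.56 in the same comparisons, under the limit. FPKM of overlapping transcripts are estimates, and reads can be assigned to either. Counting per transcript sets aside reads shared by both, so the few counts of the short transcript do not show that it was absent. The FPKM estimate of the short transcript was 18.9 and 21.3 on Day 1.

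**Figure D5:**
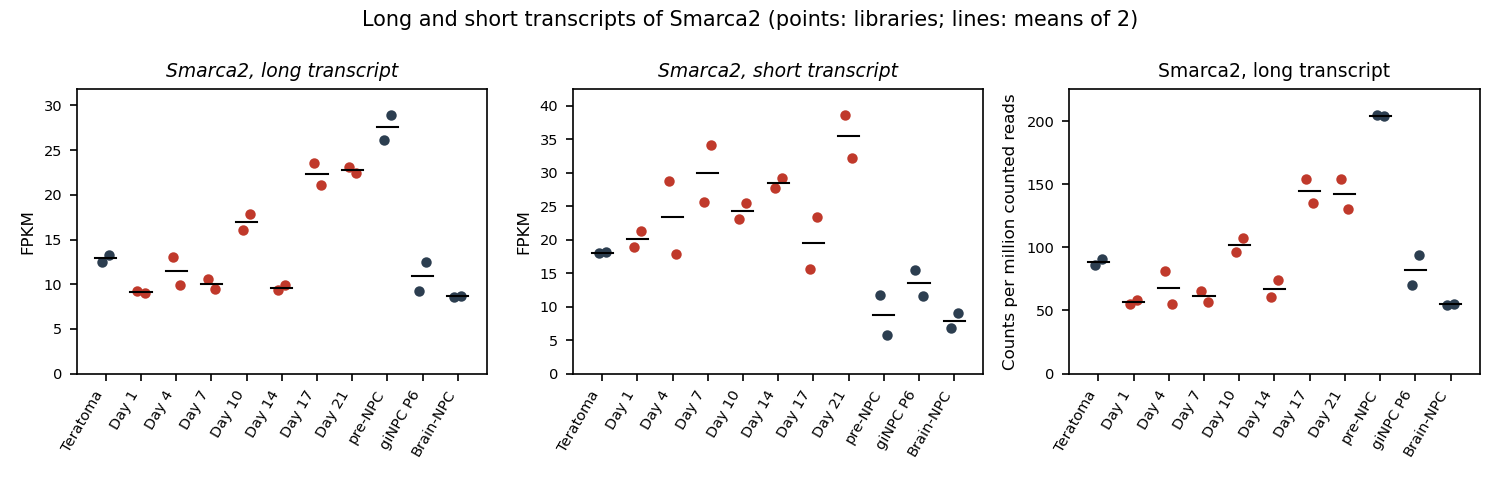
Points are single libraries and lines the mean of 2: FPKM of the long and of the short Smarca2 transcript, and counts of the long transcript as CPM (red: induction days, blue: other groups). The long transcript was highest in pre-NPC on both measures (26.1 and 28.9 FPKM, 205 and 204 CPM).

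Across all members, pre-NPC compared with Day 21 gave 1 call higher (Ezh1) and 2 lower (Ezh2 and Actl6a), against 4.05% and 8.21% of all genes. Phf19, not called by limma there, was called lower by edgeR on counts (-2.01, adjusted p = 0.000197) and with a pseudocount of 0.1 (-1.6, adjusted p = 0.000125). The median log2 difference was -0.14 over members and -0.03 over all genes. Without a fold minimum, 26 members and 45.4% of all genes passed the adjusted p. Without replicate 1 of Day 21, 0 members were called higher and 4 lower. In giNPC P6 compared with pre-NPC, 6 members were higher (Cbx8, Actl6a, Phf19, Ezh2, Phc2 and Cbx2) and 1 lower (Ezh1), against 6.87% and 5.90% of all genes, and the medians were 0.26 over members and 0 over all genes. In either direction, 16.3% of members and 12.8% of all genes were called, and 26 members and 44.0% of all genes passed without a fold minimum. The 16 proliferation genes summed to 67.1 and 74.6 FPKM in pre-NPC, below every other group, and 12 of the 16 reached 1 FPKM in both of its libraries.

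The established line was set against brain-derived progenitors to ask how near its subunit levels were. In giNPC P6 compared with Brain-NPC, 4 members were higher and 0 lower, against 4.61% and 5.38% of all genes, and 9.3% of members against 9.99% of all genes were called in either direction. Without a fold minimum, 22 members and 42.5% of all genes passed the adjusted p. Without replicate 1 of giNPC P6, 2 members were called lower. The median log2 difference was -0.07 over members and 0 over all genes.

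Bmi1 differed most. It was at 41.6 and 33.7 FPKM in giNPC P6 and 10.4 FPKM in both Brain-NPC libraries, a log2 difference of 1.76 ± 0.14 (adjusted p = 3.1e-07). Its paralog Pcgf2 (MEL18) was at 9.03 and 9.71 FPKM in giNPC P6 and 3.33 and 3.44 FPKM in Brain-NPC (1.24 ± 0.12, adjusted p = 2.59e-06). Ezh1 was at 4.19 and 4.22 FPKM in giNPC P6 and 1.53 and 1.42 FPKM in Brain-NPC (1.07 ± 0.13, adjusted p = 1.75e-05). None of these 3 genes had overlapping groups.

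Cbx8 was at 7.81 and 14.4 FPKM in giNPC P6 and 4.89 and 4.09 FPKM in Brain-NPC (1.09 ± 0.26, adjusted p = 0.00401). This call rested on single libraries: the difference was 0.69 without replicate 2 of giNPC P6 (adjusted p = 0.0581) and 0.98 without replicate 2 of Brain-NPC (adjusted p = 0.0388). The largest difference in the other direction was that of Smarca4, at 41.9 and 37.3 FPKM in giNPC P6 and 76.2 and 78.3 FPKM in Brain-NPC (-0.95 ± 0.10, adjusted p = 4.86e-06), which did not reach 2-fold. Phf19, with a log2 difference of -0.93 ± 0.15, and Ezh2, with -0.66 ± 0.11, did not reach it either. Phf19 was called lower by edgeR on counts (-1.07, adjusted p = 0.00402) and with a pseudocount of 0.1 (-1.11, adjusted p = 0.00233). The ratio of Smarca4 to Smarca2 was 1.7 and 1.55 in giNPC P6 and 4.97 and 4.42 in Brain-NPC. The 16 proliferation genes summed to 626 and 562 FPKM in giNPC P6 and 1173 and 1164 FPKM in Brain-NPC, and their part in these differences was not tested.

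None of the BAF subunits that had risen since Day 1 was called by limma between the 2 groups. Dpf3 was at 7.45 and 11.7 FPKM in giNPC P6 and 9.33 and 8.83 FPKM in Brain-NPC, with a log2 difference of 0.04 ± 0.22. Dpf1 differed by -0.22 ± 0.14 and Smarcd1 by -0.15 ± 0.11. Smarcd3 was lower in giNPC P6, at 25.4 and 37.4 against 49.9 and 50.5 FPKM, with no overlap. Its difference of -0.69 ± 0.17 (adjusted p = 0.00378) stayed under 2-fold.

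In Teratoma compared with giNPC P6, 2 members were higher and 5 lower, against 30.0% and 5.98% of all genes, which is 16.3% against 36.0% in either direction. Without a fold minimum, 30 members and 66.5% of all genes passed the adjusted p. Without either Teratoma library, Actl6b missed the filter and 1 member was called higher. The median log2 difference was -0.19 over members and 0.18 over all genes, and 0.12 over all genes on rescaled FPKM. Actl6b, the BAF53 gene of neurons, was at 19.3 and 22.4 FPKM in Teratoma and 0.997 and 0.174 FPKM in giNPC P6. Because Actl6b passed the filter on low values only through these Teratoma libraries, its call was fixed by the filter and its test is not given. That call is 1 of the 2 counted as higher and is part of the 16.3%. Actl6a was at 17.5 and 16.3 FPKM in Teratoma, with ratios of Actl6a to Actl6b of 0.907 and 0.729. Cbx7 was at 8.85 and 8.09 FPKM in Teratoma and 2.16 and 2.80 FPKM in giNPC P6 (1.45 ± 0.16, adjusted p = 1.28e-06).

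Bmi1 was at 9.89 and 8.50 FPKM in Teratoma and 41.6 and 33.7 FPKM in giNPC P6 (-1.92 ± 0.14, adjusted p = 7.18e-09). Dpf3 was at 1.87 and 1.54 FPKM in Teratoma and 7.45 and 11.7 FPKM in giNPC P6 (-1.94 ± 0.22, adjusted p = 1.47e-06), while Dpf1, the other neuronal BAF45 gene, was at 9.41 and 8.48 against 11.7 and 9.16 FPKM. Ezh2 was at 10.7 and 11.4 FPKM in Teratoma and 30.0 and 25.9 FPKM in giNPC P6 (-1.27 ± 0.11, adjusted p = 4.81e-08). All 3 called genes had groups that did not overlap.

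Cbx8 fell by 1.199 ± 0.26 in Teratoma (adjusted p = 0.000971) and Phf19 by 1.04 ± 0.15 (adjusted p = 2.51e-05). Neither reached 2-fold without 1 giNPC P6 library: Cbx8 was at -0.80 without replicate 2, and Phf19 at -0.80 without replicate 1. The 10 neuron markers summed to 941 and 923 FPKM in Teratoma, with all 10 at 1 FPKM or more, and to 241 and 175 FPKM in giNPC P6, with 7 of 10. Among them Map2 went the other way, at 49.2 and 48.8 FPKM in Teratoma and 159 and 130 FPKM in giNPC P6. Gap43 was at 266 and 260 FPKM in Teratoma but also at 245 and 244 FPKM on Day 1. The 10 epithelial and endoderm markers summed to 794 and 803 FPKM in Teratoma and 1.30 and 0.598 FPKM in giNPC P6, where 5 were at 0 (Krt8, Foxa1, Sox17, Gata4 and Afp). The 16 proliferation genes summed to 196 and 195 FPKM in Teratoma and 626 and 562 FPKM in giNPC P6. The part of these cell types in the results was not tested.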

How the data were processed

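RNA from 22 libraries in 11 groups of 2, taken from the labels, was analysed. The authors deposited FPKM per RefSeq transcript as Cufflinks tables per the file headers, and whole-number read counts per transcript ending in HTSeq summary lines. The submitters' processing notes name TopHat2 2.0.12, Cufflinks 2.2.1, HTSeq 0.6.0, edgeR and the mm9 build. The strand setting of the counting is not given in the sources used here. Of the reads in a count table, 20.86% to 27.09% fell in transcripts, 48.02% to 56.31% had no feature and 6.15% to 7.79% were ambiguous. These summary lines and 456 transcripts without a gene name were left out. All 12 members with several transcripts had under 0.5 of the counts expected from FPKM and length, so FPKM summed per gene was the main measure.

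Genes with at least 1 FPKM in at least 2 libraries (15659) were tested two-sided with limma 3.58.1 (R 4.3.3, trended variance) on log2(FPKM + 1), in a joint model of the 22 libraries, with 1 coefficient for each group and 11 residual degrees of freedom. P-values were adjusted by Benjamini-Hochberg over all genes in each comparison. Fold changes on this scale understate the change of low genes. Counts summed per gene were tested with edgeR 4.0.16 (quasi-likelihood, TMM) and DESeq2 1.42.0. Other settings were a pseudocount of 0.1, no filter, rescaled FPKM, a replicate block, no fold minimum, leaving out each library, and, added after seeing the data, a variance without a trend. The scripts were tested on simulated data. Genes named with full statistics were the called members, at most 10 per comparison by absolute log2 difference, and fixed paralog pairs; a few other values shown beside them were chosen after they were seen. The members and lists were chosen with earlier results of these data known. A gene of the related lists is not reported here.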

Additional observations from a re-analysis of the deposited data

How the results depend on the processing

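Counts below are members called higher or lower. With a pseudocount of 0.1 they were 1 higher and 1 lower on Day 4, 2 and 1 on Day 7, 8 higher on Day 10, 1 lower in giNPC P6 against Brain-NPC and 2 lower in giNPC P6 against Day 1. On rescaled FPKM they were 2 higher on Day 10, 1 lower on Day 14, 5 higher and 2 lower on Day 17, 4 lower on Day 21, and 7 higher and 3 lower in giNPC P6 against Day 1. The added lower calls there were Pcgf3, Eed, Mtf2, Rnf2, Suz12 and Phf10, and 17 of 65 named calls were under 2-fold.

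Count tests could use 36 members. Among them Jarid2, Kdm2b, Phc1 and Smarcc2 held only 150, 79, 81 and 505 counted reads in all libraries. Smarcc2 was among the edgeR calls lower in giNPC P6 against Brain-NPC (-1.74, adjusted p = 0.0254). EdgeR and DESeq2 each gave 1 lower on Day 4, 1 higher and 1 lower on Day 7, 1 lower on Day 10 and on Day 14, 4 lower on Day 17 and on Day 21, 2 lower in giNPC P6 against pre-NPC and against Brain-NPC, and 5 lower in giNPC P6 against Day 1. EdgeR turned 1 value round, Phc1 on Day 14 (-2.56, adjusted p = 0.407), a gene with 81 counted reads; 6 other calls were lost with edgeR and 7 with DESeq2.

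Without a fold minimum, higher and lower calls were 1 and 6 on Day 4, 4 and 13 on Day 7, 29 and 1 on Day 10, 24 and 3 on Day 14, 24 and 8 on Day 17, 22 and 7 on Day 21, 9 and 17 in pre-NPC, 21 and 5 in giNPC P6 against pre-NPC, 14 and 8 against Brain-NPC, 25 and 10 against Day 1, and 9 and 21 in Teratoma.

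Leaving out 1 library gave 0 to 1 higher and 0 to 1 lower on Day 7, 4 to 6 higher on Day 10, 7 to 9 on Day 14, 9 to 10 on Day 17, 8 to 9 on Day 21, 0 to 1 higher and 2 to 4 lower in pre-NPC, 5 to 6 higher in giNPC P6 against pre-NPC, 3 to 4 higher and 0 to 2 lower against Brain-NPC, 11 to 12 higher and 1 to 2 lower against Day 1, and 1 to 2 higher and 4 to 5 lower in Teratoma. A lone library is then assumed to vary like the other groups. Of the named values, 17 lost their call and 241 kept it.

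Replicate numbers did not pair the libraries: same-numbered deviations correlated between -0.067 and 0.135 in the comparisons, and between -0.261 and 0.281 over all 55 pairs of groups, of which 9 were over 0.1. A fit with the replicate number as a block kept all 65 named calls, as did no filter and a variance without a trend, the last chosen after seeing the data. The 65 include the Actl6b call in Teratoma, which the filter fixed. With 2 libraries per group, small differences cannot be separated from library spread.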

Other observations

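Polycomb and BAF genes outside the 43 were measured from 2 lists of related genes. In giNPC P6 compared with Day 1, 20.9% of all genes were higher and 13.8% lower. Bap1, which removes ubiquitin from histone H2A, averaged 30.8 ± 4.59 FPKM in giNPC P6 and 13.6 ± 0.402 FPKM on Day 1 (SD, n = 2 each; limma log2 difference 1.12 ± 0.12, SE, adjusted p = 1.25e-06). L3mbtl2, of a non-canonical PRC1, was also called higher, and Yy1 and Scml4 were called lower.

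All 14 genes of the other BAF list were tested, and 2 were higher and 2 lower in giNPC P6 compared with Day 1. Bcl7a, a small BAF subunit, averaged 19.1 ± 1.08 FPKM in giNPC P6 and 2.88 ± 0.698 FPKM on Day 1 (2.38 ± 0.13, adjusted p = 4.27e-10), and Ss18l1 (CREST), found in neuronal BAF, was the other called higher. Smarcd2, the paralog of the Smarcd1 and Smarcd3 genes that had risen, averaged 6.55 ± 3.03 FPKM in giNPC P6 and 16.2 ± 0.0585 FPKM on Day 1 (-1.25 ± 0.20, adjusted p = 5.03e-05). Bcl11b was also called lower. In Teratoma compared with giNPC P6, 2 genes of each list were higher and 0 lower (Scml4, Phf1, Smarcd2 and Bcl11a), against 30.0% and 5.98% of all genes. These were 7.14% of the other Polycomb and 14.3% of the other BAF genes tested. Bcl11a, a neuronal BAF partner, averaged 10.2 ± 1.69 FPKM in Teratoma and 1.47 ± 1.02 FPKM in giNPC P6 (2.23 ± 0.20, adjusted p = 9.15e-08).

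The longer of the Phc1 transcripts, of 3839 bases, made up 63% and 72.1% of the gene's FPKM in Teratoma and 50.8% and 64.5% in giNPC P6. At Day 14 it made up 11.5% and 5.88%. These shares rest on the division of reads between overlapping transcripts and were not tested.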
